A study of Mus musculus with 8 samples.

Results

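Extraembryonic (ExE) ectoderm cells of WT host embryos were taken from 3 droplet libraries, 1 at E7.5 and 2 at E8.5. A cell was chosen by its own expression: it needed at least 1 UMI (a counted RNA molecule) in at least 3 of the 6 genes Elf5, Wnt7b, Rhox6, Rhox9, Ascl2 and Tfap2c. This gave 1918 members of 24440 host cells, and the 8 libraries of the experiment held 49866 cells in all. The members were 1713 cells at E7.5, 147 cells in E8.5 library 1 and 58 cells in E8.5 library 2. Since the 6 genes chose the members, their levels are given as a description, and the same holds for every comparison of the members with other cells of the same libraries.

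The host embryos grew from WT C57BL/6J blastocysts that had been injected with Tet-TKO ES cells, which lack all 3 TET dioxygenases, come from a C57BL/6J and 129Sv cross and carry an H2B-tdTomato reporter. Embryos were pooled, dissociated and sorted by flow cytometry, and the host cells are the tdTomato- DAPI- singlets, so they developed beside mutant cells in the same embryos. All libraries used 10x Genomics 3′ v3 chemistry. The 3 host libraries held between 103814649 and 131775288 UMIs, and the replicates are libraries: whether the E8.5 libraries came from separate embryo pools is not given in the sources used here, so p-values measure only the spread between these libraries. How much extraembryonic tissue was kept at dissection is likewise not given, and a difference in the share of members between stages cannot be told apart from a difference in dissection.

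ExE ectoderm is the trophoblast layer that lies next to the epiblast in the egg cylinder. It descends from the polar trophectoderm, holds the trophoblast stem cell pool under FGF signals from the epiblast, and sends BMP signals back to the epiblast. After gastrulation its distal part becomes the chorion, which joins the allantois to build the labyrinth of the placenta, while the part nearest the ectoplacental cone gives rise to cone and giant cell lineages. Elf5, an ETS-domain transcription factor, is kept silent by promoter methylation in the embryonic lineage and is active in trophoblast.

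The stretches before the transcription start sites of 5 genes on which the results turn are shown first. They were chosen, with values known, as the first marker of the rule (Elf5; Ascl2 also has an entry), 3 genes at higher levels in the members with known roles in germline and placenta (Rhox5, Tex19.1) or in signalling (Bmp8b), and the gene that differed most between the stages among those with lower levels in other host cells (Esx1). Each is the 250 bases upstream of a RefSeq start site in GRCm38.p6, written 5′ to 3′ on the gene's strand, with CpG dinucleotides, the sites of DNA methylation, in capitals.
Elf5 (+ strand, chr2:103423818-103424067): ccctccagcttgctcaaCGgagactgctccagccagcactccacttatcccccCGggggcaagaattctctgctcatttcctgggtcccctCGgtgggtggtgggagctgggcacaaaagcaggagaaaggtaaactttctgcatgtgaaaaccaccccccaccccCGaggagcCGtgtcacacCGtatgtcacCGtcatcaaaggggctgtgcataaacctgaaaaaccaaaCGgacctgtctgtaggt
Rhox5 (+ strand, chrX:37754358-37754607): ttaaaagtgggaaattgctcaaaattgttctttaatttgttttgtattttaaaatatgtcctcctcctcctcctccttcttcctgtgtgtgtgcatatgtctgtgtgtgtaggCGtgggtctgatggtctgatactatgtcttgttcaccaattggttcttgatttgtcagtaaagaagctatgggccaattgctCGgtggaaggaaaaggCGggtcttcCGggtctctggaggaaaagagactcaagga
Tex19.1 (+ strand, chr11:121145893-121146142): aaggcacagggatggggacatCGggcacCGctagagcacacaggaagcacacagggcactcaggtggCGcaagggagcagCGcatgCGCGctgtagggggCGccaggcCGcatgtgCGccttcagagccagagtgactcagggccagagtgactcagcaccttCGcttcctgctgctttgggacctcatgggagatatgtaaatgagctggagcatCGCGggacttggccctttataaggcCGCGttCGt
Bmp8b (+ strand, chr4:123104911-123105160): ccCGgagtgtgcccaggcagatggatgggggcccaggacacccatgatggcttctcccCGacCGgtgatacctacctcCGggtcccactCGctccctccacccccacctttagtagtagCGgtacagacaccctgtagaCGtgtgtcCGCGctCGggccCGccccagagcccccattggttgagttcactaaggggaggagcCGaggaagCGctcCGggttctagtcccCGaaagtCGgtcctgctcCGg
Esx1 (- strand, chrX:137120327-137120576): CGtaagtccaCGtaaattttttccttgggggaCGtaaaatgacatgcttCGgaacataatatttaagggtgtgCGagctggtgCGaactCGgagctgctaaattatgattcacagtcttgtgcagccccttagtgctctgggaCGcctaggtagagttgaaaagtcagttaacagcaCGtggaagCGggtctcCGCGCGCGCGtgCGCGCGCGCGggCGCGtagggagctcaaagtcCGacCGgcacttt

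The windows held 8 CpGs at Elf5, 4 at Rhox5, 15 at Tex19.1, 17 at Bmp8b and 24 at Esx1. Elf5 has 2 entries, and the window shown lies before an internal start site, in an intron of the longer transcripts, with 6 exonic bases. The start sites of RefSeq and of the gene annotation (GENCODE) also differ for both X-linked genes. The Rhox5 window ends at chrX:37754607, far upstream of the gene annotated at chrX:37804842-37808876, and does not adjoin its annotated start. The Esx1 window lies within the gene annotated at chrX:137115397-137122083. The median over all 32851 such windows of 27025 genes was 6 CpGs, and 43.0% of windows held at least as many as Elf5 and 62.2% at least as many as Rhox5. None of the 5 windows held GCCNNNGGC, the palindrome bound by AP-2 factors such as Tfap2c, which reads the same on both strands and was found in 13.7% of all windows. No promoter entry was matched for Wnt7b, Rhox6, Rhox9 and Tfap2c.

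The members made up 24.0% of host cells at E7.5 (exact 95% binomial interval 23.0 to 24.99%), 1.78% in E8.5 library 1 (1.51 to 2.09%) and 0.642% in E8.5 library 2 (0.488 to 0.83%). These intervals cover counting error only. The E8.5 libraries did not overlap each other in this share, and both lay far under the E7.5 library, which is single, so no test between stages was made. The same rule was met by 18 of 5513 Tet-TKO cells at E7.5 (0.327%) and by 55 of 19913 at E8.5, between 0.114 and 0.889% per library. The study, which assigned cell types by mapping to an atlas, reports no contribution of tdTomato+ cells to ExE ectoderm. It states this for injected WT control cells and for Tet-TKO cells. The share of E8.5 host library 2 lay within the range of the Tet-TKO libraries and that of library 1 above it. The Tet-TKO libraries differed in depth, however. E8.5 Tet-TKO libraries 3 and 4, with shares of 0.694 and 0.889%, had medians of 40354 and 68554 UMIs in their other cells. Tet-TKO libraries 1 and 2, with 0.114 and 0.230%, had 18757 and 12165.5 UMIs, against 13639.5 in E8.5 host library 2. An Elf5 UMI was found in 10 of the 55 Tet-TKO cells and in 117 of 147 (79.6%) and 44 of 58 (75.9%) of the host members. At E7.5, 12 of the 18 Tet-TKO cells and 1648 of 1713 host members (96.2%) had an Elf5 UMI.

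Members were deeper than the other host cells, with medians of 16973, 23564 and 19709 UMIs per cell against 13390, 15140 and 13640 in E7.5, E8.5 library 1 and E8.5 library 2. A deeper cell meets a rule of at least 1 UMI more easily, and after thinning each cell to 5000 UMIs the shares were 12.8%, 0.869% and 0.325%. A tdTomato UMI was found in 3 members of E7.5 (0.175%) and in 1 member of E8.5 library 2 (1.72%). Among the other host cells the shares were 0.645%, 0.579% and 0.835% in the 3 libraries. The 3 host libraries shared 15 to 27 barcodes per pair, and no barcode was a member in more than 1 of them.

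Dnmt3l, the catalytically inactive partner of the de novo methyltransferases, and Bmp8b, neither of which the rule used, had higher levels just inside its threshold than just outside. Cells with exactly 3 markers numbered 375, 31 and 17, and cells with exactly 2 markers numbered 221, 83 and 57 in the 3 libraries. Dnmt3l stood at 94.5, 62.1 and 40.3 CPM (UMIs of a gene per 1000000 UMIs of the summed cells) in cells with 3 markers and at 62.01, 8.62 and 1.07 CPM in cells with 2. Bmp8b stood at 43.7, 31.1 and 13.4 CPM just inside and at 25.4, 0.663 and 1.07 CPM just outside. Dppa3, a germ cell and early embryo gene that is no marker of trophoblast, stood at 51.8 and 53.8 CPM in the 3-marker cells of the E8.5 libraries and at 0.854 CPM in those of E7.5. In each E8.5 library a single 3-marker cell held all of these Dppa3 UMIs, 1 of 31 cells in library 1 and 1 of 17 in library 2. Both cells had Rhox6, Rhox9 and Tfap2c as their markers. In cells with 4 markers Dppa3 stood at 30.7 CPM in E8.5 library 1 and at 0 in library 2. Cells with 5 or 6 markers had no Dppa3 UMI in either E8.5 library.

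Elf5 stood at 361, 206 and 188 CPM in members of E7.5, E8.5 library 1 and E8.5 library 2, against 10.5, 0.658 and 0.342 CPM in the other host cells. Wnt7b, a WNT ligand of the chorion, stood at 86.5, 73.9 and 70.8 CPM, and Ascl2, an imprinted bHLH factor that maintains trophoblast progenitors, at 120, 145 and 122 CPM. Tfap2c, which acts with Elf5 and Eomes in trophoblast stem cells, stood at 161, 155 and 138 CPM. The X-linked homeobox genes Rhox6 (83.9, 139 and 171 CPM) and Rhox9 (44.0, 72.2 and 89.6 CPM) were at their lowest levels at E7.5, whereas Elf5 was at its highest there. Other host cells were lower in each library for each of the 6 genes, with Elf5 at E7.5 their highest value.

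RNA that is free in a droplet library gives UMIs in cells that do not express a gene, so detection was set beside mesoderm reference cells, which carry UMIs of at least 3 of 8 mesoderm genes and at most 2 of the 6 markers and should lack Elf5. With each cell thinned to 5000 UMIs, an Elf5 UMI was found in 78.1%, 51.7% and 44.8% of members against 1.35% of 740, 0.849% of 707 and 0 of 754 reference cells, the last of which allows a share of up to 0.398%. Unthinned, the shares were 96.2%, 79.6% and 75.9% against 2.93%, 0.836% and 0.128%, at median depths of 14468, 16570.5 and 13858 UMIs in the reference cells. Elf5 belongs to the 6 genes that chose the members, so its contrast with the reference cells was largely set by the rule. Dnmt3l, which the rule did not use, was found in 39.98%, 37.1% and 36.2% of thinned members against 1.22%, 0.283% and 0.133% of reference cells. Thinning left out 22, 4 and 0 members and 11, 11 and 27 reference cells.

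**Figure D1:**
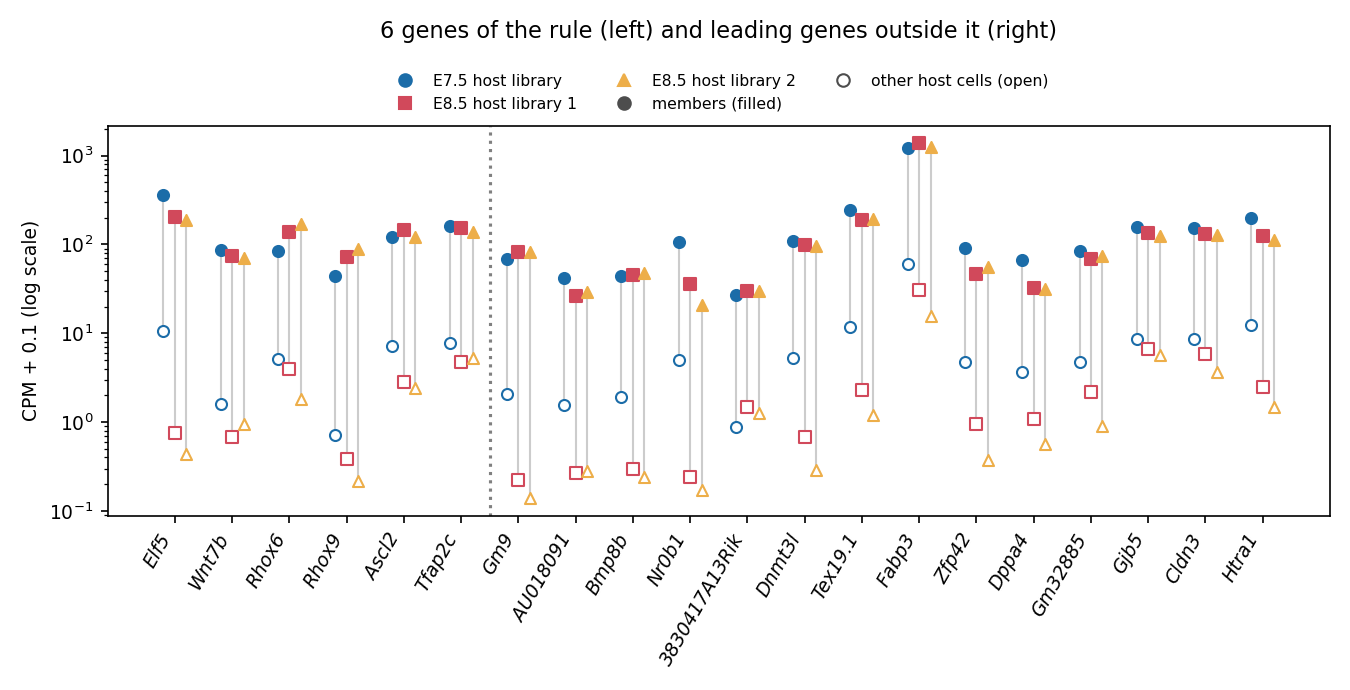
Levels of the 6 genes of the rule (left of the dotted line) and of leading genes outside it, as CPM + 0.1 on a log axis. Each symbol is 1 library, filled for members and open for the other host cells. Filled symbols lie above open ones for each gene, by at least 16.2-fold among the leading genes, and the open symbols of E7.5 lie above those of E8.5 for most of them, for example at 4.85 CPM for Nr0b1 against 0.141 and 0.0716 CPM.

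Outside the rule, 77 of the 4819 genes with at least 20 CPM in members of each library (1.6%) were at least 4-fold higher in members than in other host cells of the same library in all 3, and 99 of the 4997 genes with at least 20 CPM in the other cells (1.98%) were at least 4-fold lower. Over the 4819 genes the median of the smallest fold was 0.996. The 15 genes with the largest smallest fold were led by Gm9, AU018091, Bmp8b, Nr0b1, 3830417A13Rik, Dnmt3l, Tex19.1, Fabp3 and Zfp42, and also held Dppa4, Gm32885, Gjb5, Cldn3 and Htra1. Cells chosen for 3 markers share more than those markers by construction, so these counts say how wide the difference is and nothing about chance.

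Trophoblast stem and chorion factors formed the first group. Of 12 genes, 9 had 20 CPM in members of each library and 2, Eomes and Zfp42, were at least 4-fold higher throughout, with a median smallest fold of 2.12 over the 9. Eomes, a T-box factor needed for the trophoblast lineage, stood at 129, 53.8 and 41.0 CPM in members against 30.5, 1.50 and 0.493 CPM in other cells. Esrrb, an orphan nuclear receptor of the stem state, stood at 24.9, 5.66 and 11.9 CPM and thus missed the minimum at E8.5, with at most 1.12 CPM in other cells. Cdx2 and Sox2, which embryonic tissues of these stages also use, were closer, at 130, 71.4 and 78.5 CPM of Cdx2 against 86.6, 64.5 and 44.5 CPM. Sox2 stood at 116, 68.0 and 58.0 CPM against 48.8, 56.9 and 66.0 CPM, so it was lower in members than in other cells in E8.5 library 2. Tead4 (35.6, 18.97 and 18.8 CPM) and Gata3 (27.9, 26.9 and 27.3 CPM), which act upstream in trophectoderm, were at least 2.06-fold higher than in other cells in each library.

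Among 12 genes of signals and their processing, 6 reached 20 CPM throughout and Bmp8b and Id2 were at least 4-fold higher. Bmp8b, a BMP ligand by which ExE ectoderm acts on the epiblast, stood at 44.1, 45.0 and 47.8 CPM against 1.82, 0.196 and 0.143 CPM. Id2, a target of BMP signalling, stood at 1295, 1325 and 1280 CPM against 157, 282 and 237 CPM. Bmp4 stood above other cells at E7.5 alone. It stood at 105 CPM in members at E7.5 against 47.4 CPM in other cells, and at 39.1 and 29.9 CPM at E8.5 against 46.1 and 35.3 CPM. Wnt6 stood at 95.9, 68.0 and 105 CPM against 12.6, 20.5 and 19.5 CPM. The proprotein convertase Pcsk6, which processes TGF-beta family ligands, stood at 21.1, 8.78 and 10.2 CPM against at most 1.96 CPM, and Furin at 9.48, 7.93 and 8.53 CPM against 14.0, 13.5 and 9.55 CPM. Fgf4 and Nodal, ligands of the epiblast side, were under 5 CPM in members of each library, while the FGF receptor gene Fgfr2 stood at 51.4, 32.6 and 31.6 CPM.

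Markers of later trophoblast were uneven. Of 12 ectoplacental cone and spongiotrophoblast genes, 4 reached 20 CPM, and Gjb5 and Plet1 were among those at least 4-fold higher, while Tpbpa, Tpbpb, Flt1, Pcdh12, Egfr and Ppp2r2b were under 5 CPM in each library. Gjb5, a connexin gene, stood at 157, 135 and 125 CPM against 8.55, 6.59 and 5.603 CPM. Hand1, a bHLH factor of giant cell differentiation that extraembryonic mesoderm also uses, stood at 224, 425 and 491 CPM against 129, 99.3 and 81.1 CPM. All 12 giant cell and prolactin family genes, Prl3d1 and Prl3b1 among them, were under 5 CPM in members of each library. Of 13 labyrinth and syncytiotrophoblast genes 4 reached 20 CPM and Tfeb, a lysosomal regulator needed in the labyrinth, was higher at 35.6, 23.8 and 25.6 CPM against 5.48, 4.06 and 1.64 CPM. Gcm1, Syna, Synb, Cebpa, Gjb2 and Hsd11b2 were under 5 CPM, the last of them also at least 4-fold lower than in other cells. Tpbpa, Prl3d1 and Syna had no UMI in members or other host cells of any library.

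Keratins and epithelial adhesion genes were generally present, with 10 of 12 at 20 CPM and Cldn3 and Cldn4 among those at least 4-fold higher. Cldn3, a tight junction protein, stood at 153, 131 and 129 CPM against 8.55, 5.73 and 3.54 CPM. Krt19 stood at 214, 191 and 174 CPM against 35.8, 60.01 and 38.4 CPM, and Krt8 at 298, 453 and 399 CPM against 405, 464 and 293 CPM, so that Krt8 did not separate members from the remaining cells. The 10 S phase genes and the 10 G2/M genes all reached 20 CPM and none was 4-fold apart in either direction, with median smallest folds of 1.06 and 1.18. Fabp3, a fatty acid binding protein, stood at 1235, 1371 and 1248 CPM against 59.6, 30.3 and 15.7 CPM.

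Of the 8 DNA methylation genes, Dnmt3l alone was at least 4-fold higher throughout. Dnmt3l stood at 109, 99.1 and 96.4 CPM against 5.13, 0.572 and 0.191 CPM. Dnmt3b stood at 367, 209 and 186 CPM in members against 458, 76.5 and 61.1 CPM, lower than other cells at E7.5 and higher at E8.5. Dnmt3a stood at 7.59, 11.6 and 11.1 CPM against 39.7, 20.4 and 20.9 CPM, below the other cells in each library. Dnmt1, the maintenance enzyme, stood at 101.1, 107 and 108 CPM against 95.0, 90.4 and 105 CPM, and Tet1 at 21.7, 26.9 and 20.5 CPM against 30.04, 22.4 and 20.4 CPM. Tex19.1, a germline and placenta gene that restrains retrotransposons, stood at 245, 191 and 195 CPM against 11.8, 2.21 and 1.09 CPM. Utf1 and Zfp42, known from pluripotent cells, were also higher, Utf1 at 416, 312 and 324 CPM against 73.8, 2.55 and 1.15 CPM. Pou5f1, the pluripotency factor of the epiblast list, was at 22.4, 8.78 and 8.53 CPM in members and at 255, 17.5 and 5.71 CPM in other cells.

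Of 16 placental imprinted genes, 12 reached 20 CPM, Sfmbt2 was higher and Dlk1 lower by 4-fold, and the median smallest fold was 0.921. Sfmbt2, a paternally expressed Polycomb gene required for trophoblast, stood at 163, 140 and 133 CPM against 11.8, 6.52 and 2.99 CPM. Phlda2, which limits placental growth, stood at 1190, 2125 and 1679 CPM against 943, 667 and 373 CPM. Mest stood at 87.5, 99.4 and 115 CPM against 244, 610 and 666 CPM, and Cdkn1c at 122, 181 and 103 CPM against 157, 551 and 361 CPM. Both were lower in members in each library without reaching 4-fold in all of them.

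The X-linked Rhox cluster lies at chrX:37244976-38129967, over 884992 bases for the 9 genes listed. Rhox5, which the rule did not use, stood at 2011, 1466 and 1798 CPM in members against 193, 129 and 41.5 CPM, and it alone of the 7 genes outside the rule reached 20 CPM. Rhox4e stood at 9.45, 10.5 and 15.4 CPM against at most 0.452 CPM, and Rhox2a, Rhox4b, Rhox10 and Rhox12 were under 5 CPM. Rhox13 stood at 1.86, 16.1 and 2.56 CPM, with the E8.5 libraries far apart. Copies in this cluster are alike in sequence, so reads may be split between them. Trap1a, another X-linked gene, stood at 634, 558 and 499 CPM against 70.2, 58.1 and 17.3 CPM. Of the 5 extraembryonic marker genes the study names outside the rule, Rhox5 and Trap1a were at least 4-fold higher, and Krt8, Apoe and Xlr3a were not. Of the 77 higher genes, 11 (14.3%) lie on the X chromosome, against 147 of 4817 genes with a position (3.05%). They are 3830417A13Rik, Akap17b, Gm9, Klhl13, Ldoc1, Mageb16, Morc4, Nr0b1, Nup62cl, Rhox5 and Trap1a. Of the 99 lower genes, 10 (10.1%) are X-linked too. They were drawn from the genes at 20 CPM in other cells, whose X-linked share was not computed.

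Promoter windows were matched for 64 of the 77 higher genes (83.1%), giving 86 windows with a median of 12 CpGs and quartiles of 5 and 17. Windows of the genes at 20 CPM in members, 3888 of 4819 of which were matched (80.7%), had a median of 18. GCCNNNGGC occurred in 18.6% of the windows of the higher genes and in 21.1% of those at 20 CPM. Of the lower genes 77.8% matched, a smaller share, which limits their values. Their windows had a median of 10.5 CpGs, and 21.8% held GCCNNNGGC. A median under 18 CpGs was thus not particular to the higher genes. These are descriptions of sequence and no measure of methylation or binding.

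The lower genes were led by Acta2, Hbb-bh1, Apela, Nrp1, Inka1, Foxf1, Asb4, Itm2a, Tal1 and Prkar2b, named after their values were seen. Foxf1, a factor of extraembryonic and lateral mesoderm, stood at 3.14, 5.38 and 2.56 CPM in members against 56.6, 56.1 and 46.8 CPM, and vimentin (Vim) at 17.8, 28.3 and 6.83 CPM against 214, 229 and 181 CPM. Of the lists for other cell types, the visceral endoderm list had 3 lower (Ttr, Apoa1 and Afp) of 5 genes with 20 CPM in other cells of each library, the mesoderm list 2 of 2 (Twist1 and Foxf1), the erythroid and endothelium lists 1 of 2 each (Hbb-bh1 and Kdr), and the parietal endoderm list 0 of 4. No gene of the primordial germ cell, epiblast, surface ectoderm and maternal lists had 20 CPM in other cells of each library, so none of them could be counted as lower. The epiblast list had Utf1 as its single higher gene.

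The label was set beside the lists outside the rule. The members were chosen by trophoblast genes and the counts keep genes at 20 CPM in members, so this is a description and no test. Over all 4819 genes at 20 CPM in members, 77 (1.6%) were at least 4-fold higher. Among the list genes at that level, 2 of 9 stem and chorion factors, 2 of 6 signalling genes and 3 of 4 cone genes were so. For labyrinth genes it was 1 of 4 and for imprinted genes 1 of 12. Lists not particular to trophoblast had such genes too, with 3 of 10 keratin and adhesion genes, 1 of 5 DNA methylation genes and 1 of 1 epiblast genes (Utf1). Against the label stood Sox2 and Bmp4, at lower levels than in other cells in 1 and in 2 of the E8.5 libraries. Dlk1 was 4-fold lower, and 6 cone and 12 giant cell genes were under 5 CPM. The imprinted list also had a median smallest fold of 0.921, under the 0.996 over all genes. Maternal genes summed to 1.86, 5.10 and 0 CPM, with Prl8a2 and Ptprc at 0 in members of each library. Visceral endoderm genes summed to 78.0, 488 and 19.6 CPM in members against 1620, 2248 and 647 CPM in other cells. Erythroid genes summed to 35.6, 578 and 2079 CPM against 233, 19742 and 47387 CPM. UMIs of at least 3 erythroid genes were found in 10 members at E7.5 and in 120 (81.6%) and 56 (96.6%) at E8.5, where 69.9% and 95.3% of the other cells also held them. The part of free globin RNA in this was not tested.

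Doublets were kept, and were scored with Scrublet to give values without them. The highest scores, taken at 0.8% of barcodes per 1000 barcodes in a library, held 175 (10.2%), 22 (14.97%) and 6 (10.3%) of the members against 4.605%, 6.95% and 7.59% of other host cells. Members so marked were deeper, with medians of 25830, 33747 and 27877 UMIs against 16502.5, 22657 and 19637 in the remaining members. Without them 1538, 125 and 52 members were left.

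Clustering of the members without the 6 genes gave 14 clusters at a Leiden resolution of 1, with E7.5 and E8.5 members largely in different clusters. Globin genes were not left out, and no correction between libraries was made. The number is a setting rather than a count of types, as resolutions of 0.5 and 2 gave 6 and 24 clusters. Genes of a cluster are those the clustering used, so all values are descriptions. Clusters are called by number and leading genes.

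Cluster 0 held 261 members of E7.5, none of E8.5 library 1 and 1 of E8.5 library 2. Its leading genes included Sox3 at 86.2 CPM against 10.7 CPM in the other members, the retinoic acid-degrading enzyme gene Cyp26a1 at 148 against 34.2 CPM, and Spry4, a target and brake of FGF signalling, at 16.7 against 3.49 CPM. In its E7.5 cells Eomes stood at 225 CPM, Sox2 at 199.7 CPM, Bmp4 at 204 CPM and Elf5 at 470.2 CPM, while Ascl2 stood at 32.0 CPM and Gata2 at 3.87 CPM. Eomes, Sox2, Bmp4 and Elf5 are genes known from the stem cell zone next to the epiblast.

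Cluster 6 held 142 members of E7.5, 6 of E8.5 library 1 and none of library 2. Its leading genes included Plac1 at 140 CPM against 2.53 CPM, Cebpa, Nrk, Elf3, Ldoc1 and Krt7, the last at 71.0 against 9.27 CPM. Plac1, an X-linked gene, is known from the cone and the later placenta. It had a UMI in 31.1% of the cluster's cells. Of the 12 cone genes it was the 1 gene at least 2-fold above the other members, while Flt1 and Bhlhe40 were at least 2-fold below. In the E7.5 cells of cluster 6, Ascl2 stood at 375 CPM and Phlda2 at 3266 CPM. Eomes stood there at 15.01 CPM, Sox2 at 3.43 CPM, Bmp4 at 2.57 CPM and Elf5 at 161 CPM. Clusters 0 and 6 thus lay far apart for these genes within a single library and a single stage.

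At E8.5 most members fell into clusters 7 and 9, and both were seen in each E8.5 library. Cluster 7 held 3.91% of members at E7.5 (67 cells) and 35.4% (52) and 48.3% (28) in the E8.5 libraries. Beside globin genes it was led by Sct, Mustn1, Tbx3, Gata2 and Esx1, with Gata2, a regulator of placental lactogens in later trophoblast, at 94.1 CPM against 18.5 CPM in the other members. Cluster 9 held 0.817% of members at E7.5 (14 cells) and 29.3% (43) and 25.9% (15) at E8.5. It was led by Rhox13, globin genes, Esx1, Fam89a, Ddit4 and Tcirg1. In both clusters Hba-x had 0 UMIs in the E7.5 cells and was found in 100% of the cells of each E8.5 library. The part of globin RNA in forming these clusters was not tested.

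Both clusters stood apart in each library. Elf5 stood at 93.1, 99.6 and 108 CPM in cluster 7 and at 439.8, 422 and 387 CPM in cluster 9 in E7.5, E8.5 library 1 and E8.5 library 2. Eomes stood at 9.90, 16.9 and 10.2 CPM in cluster 7 and at 122, 110.0 and 108 CPM in cluster 9, where the counts were 27, 113 and 32 UMIs. Bmp4 stood at 1.98, 8.89 and 11.9 CPM in cluster 7 and at 95.2, 72.0 and 77.4 CPM in cluster 9, and Sox2 at 1.98, 13.3 and 5.12 CPM against 118, 137 and 97.6 CPM. The opposite order was seen for Ascl2, at 308, 192 and 176 CPM in cluster 7 and 58.9, 94.4 and 101.01 CPM in cluster 9, and for Phlda2, Gata2, Rhox6 and Rhox9. Esx1 stood at 68.3, 109 and 160 CPM in cluster 7 and at 54.4, 76.9 and 121 CPM in cluster 9. In cluster 7 its level was thus higher at E8.5 than at E7.5. The values of cluster 9 run the same way but rest on 12, 79 and 36 UMIs, so the difference there is uncertain. Within cluster 9, which held 14 cells at E7.5, Eomes and Bmp4 were at similar levels at both stages. Over all members they were lower at E8.5. The clustering could use both genes, so cells of a cluster may be alike in them by construction. The part of cluster make-up in the stage difference was not tested.

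**Figure D2:**
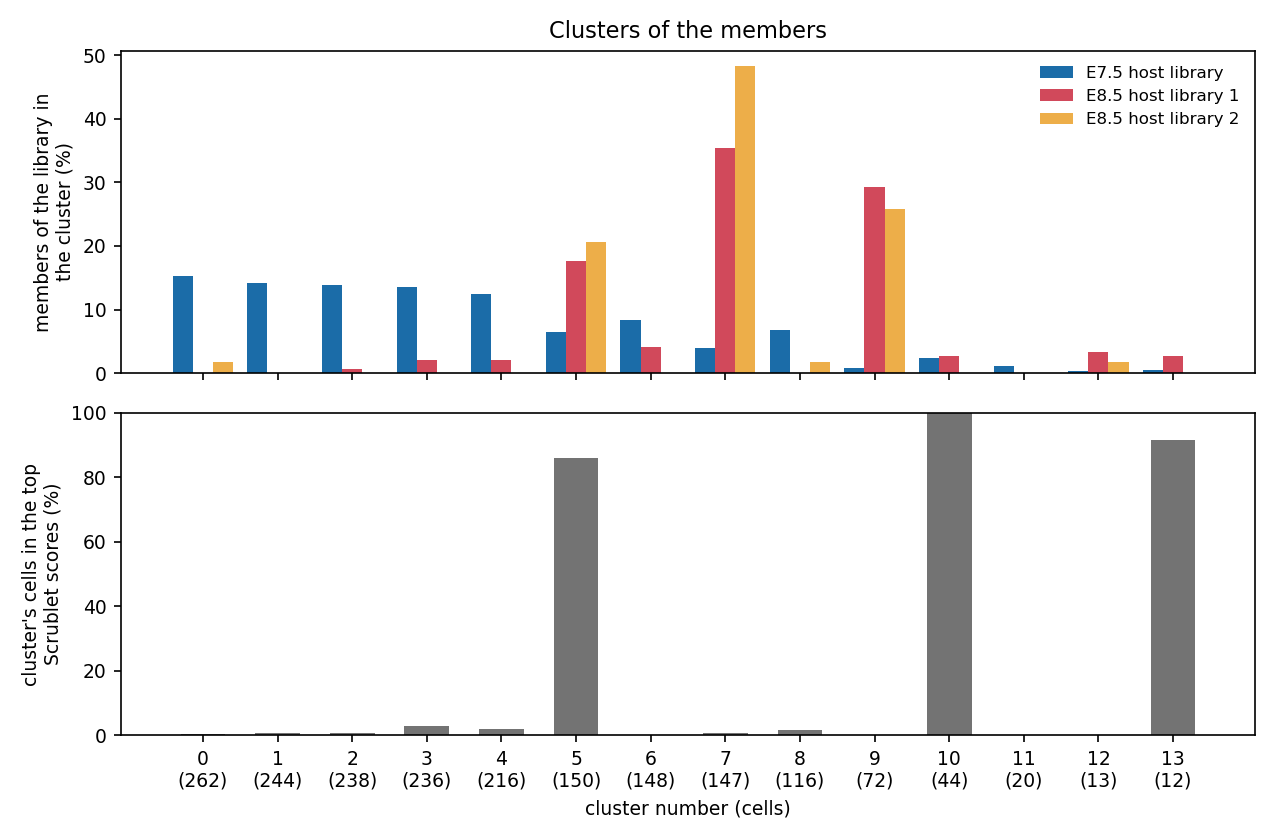
Clusters of the members by number, with their number of cells in parentheses. The upper bars give the percentage of each library's members in a cluster, and the lower bars the percentage of a cluster's cells among the highest Scrublet scores, from 0 to 100%. Clusters 7 and 9 hold most E8.5 members, and clusters 5, 10 and 13 stand out in the lower bars at 86.0%, 100% and 91.7%.

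Clusters 5, 10 and 13 raised genes of other cell types. Of 51 genes of the other-type lists outside the globin genes, 20 were at least 2-fold above the other members in cluster 5, 7 in cluster 10 and 9 in cluster 13. Cluster 5 (150 cells) was led by Fst, Ptn, Crabp1, Meis2 and Crabp2 and had Pou5f1 at 148 CPM against 4.72 CPM. Cluster 10 (44 cells) was led by Tal1, Fgf3 and Lmo2, and cluster 13 (12 cells) by the visceral endoderm genes Ttr at 4211 against 10.5 CPM, Apom, Apoa1 and Apob. They held 206 members (10.7%), namely 9.34%, 23.1% and 20.7% of the members of E7.5, E8.5 library 1 and E8.5 library 2. Of the other 11 clusters none had more than 2.97% of its cells among the highest Scrublet scores.

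The remaining clusters were either small or nearly all of E7.5. Cluster 11, with 20 cells of E7.5, was led by Cdkn1a at 116 against 4.31 CPM together with Trp53inp1, Btg2, Ccng1, Phlda3 and Mdm2, which are known targets of the p53 response, and Mdm2 stood at 176 against 34.2 CPM. The 13 cells of cluster 12 were 7 of E7.5, 5 of E8.5 library 1 and 1 of E8.5 library 2. They had a median of 4253 UMIs and 1694 genes, and no name is given to them. Clusters 1, 2, 3, 4 and 8 held between 116 and 244 cells, nearly all of E7.5, with few cells of E8.5 each. Cluster 2 was led by Kctd14, Soga3 and Duoxa2, the maturation factor of a dual oxidase, cluster 3 by 2210409E12Rik, Msx2 and AA467197, and cluster 4 by Gata1, C1ql4 and Eras.

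**Figure D3:**
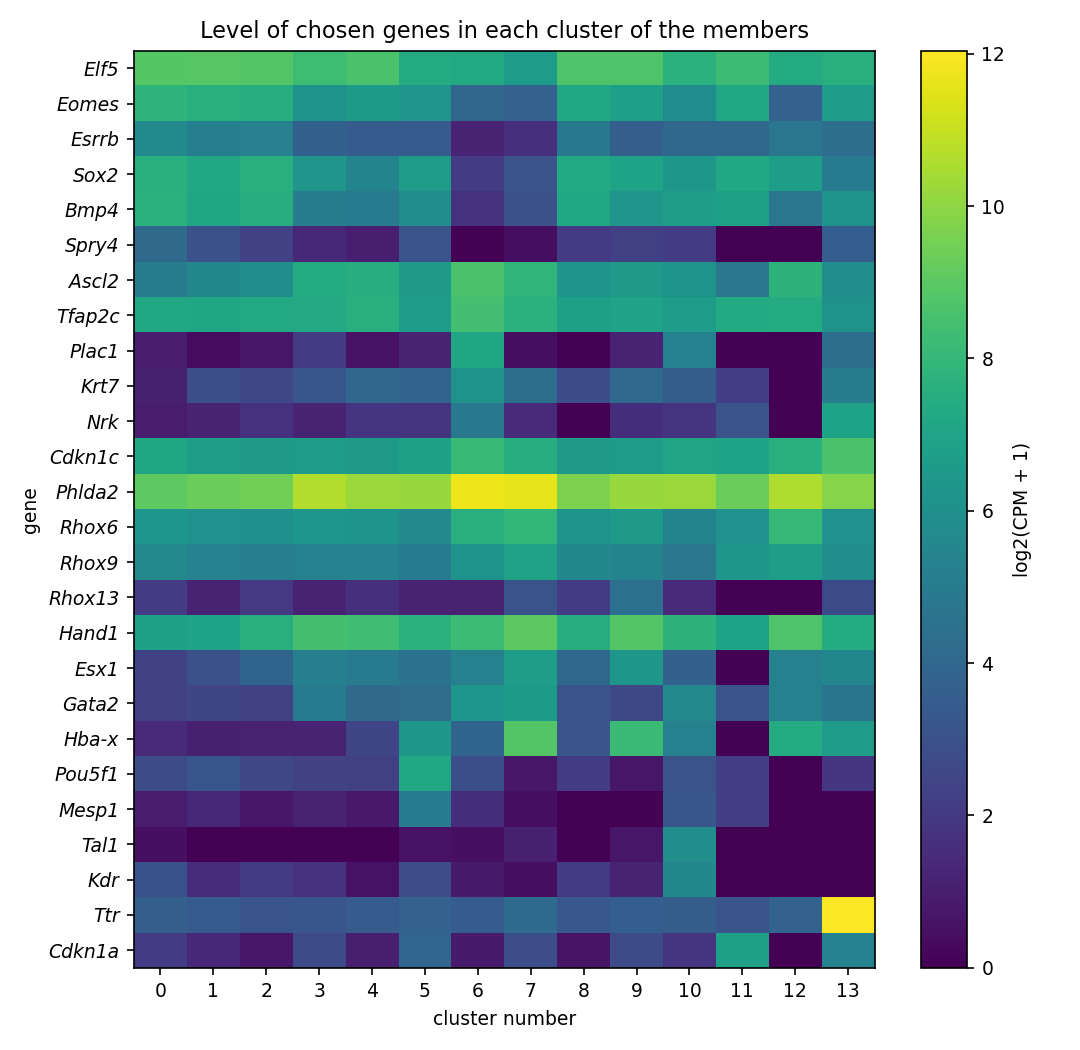
Levels of chosen genes (rows) in the clusters of the members (columns, by number) as log2(CPM + 1), from dark (low) to bright (high). Eomes, Sox2 and Bmp4 are bright in clusters 0 and 2 and dark in clusters 6 and 7, and Ttr is brightest in cluster 13.

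Between the stages, the members' sums were compared by the quasi-likelihood test of edgeR, and the threshold was an adjusted p of 0.01 with a log2 fold change of at least 1 in size. No gene of 10644 tested was called (0%), the lowest adjusted p was 0.649, and 751 genes had an unadjusted p under 0.05. DESeq2 on the same sums called 35 genes (0.329%), 25 higher and 10 lower at E8.5. The design has 1 residual degree of freedom and assumes that the lone E7.5 library varies like the E8.5 libraries. The call depended on the cells kept: without doublets edgeR called 62 genes higher (0.62% of 10002) and 67 lower (0.67%), with no gene-wise spread left in the fit, so those p-values rest on the average spread of genes at a given level.

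Since the test called no gene, the stages are described by the levels of each library. This description and the genes named from it were chosen after values were seen. With at least 20 CPM in each library of the higher stage and both E8.5 libraries at least 2-fold from the E7.5 library, 23 of 5313 genes (0.433%) were higher and 26 (0.489%) lower at E8.5 over all members. Without doublets these were 18 of 5282 (0.341%) and 28 (0.53%), and 17 and 21 genes were shared by both sets of cells. The E8.5 libraries were at least 2-fold from each other in 60 of 5524 genes with 20 CPM in either of them (1.09%). That is a looser rule than the one between stages, so these shares are not like for like. Under the stage rule, the other host cells, doublets kept, had 98 of 5627 genes (1.74%) higher and 52 (0.924%) lower at E8.5. Of the 17 shared higher genes, 4 were haemoglobin genes.

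The remaining 13 higher genes were Ptn, Crabp1, Crabp2, Msx1, Prtg, Gpc3, Cd24a, Esx1, Id3, Serpinh1, Ddit4, Mdk and Irx4. Without doublets, 11 of the 13 were higher in the other host cells than in the members in both E8.5 libraries. Ptn, a growth factor, stood at 0.459, 21.3 and 49.9 CPM in members and at 37.2, 240 and 433 CPM in other cells. Crabp1, a retinoic acid binding protein, stood at 1.46, 45.1 and 135 CPM in members and at 77.6, 252 and 380 CPM in the other cells. Ptn, Crabp1 and Crabp2 were also among the leading genes of cluster 5, most of whose cells had the highest Scrublet scores. For these genes the part of RNA from other cells was not tested.

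Esx1 and Irx4 were the 2 higher genes with lower levels in other cells. The Poisson intervals given here and for the lower genes cover counting error only, and those of the E8.5 libraries did not overlap for Esx1. All p-values without doublets rest on the average spread of genes at a given level, with 1 library at E7.5. Esx1, an X-linked homeobox gene of chorion and labyrinth trophoblast whose upstream window is shown above, stood at 19.8, 76.2 and 120 CPM in members (exact 95% Poisson intervals 18.2 to 21.4, 67.3 to 85.8 and 101.3 to 142 CPM) against 2.58, 3.77 and 1.54 CPM in other cells. Both E8.5 libraries lay above the E7.5 library, with a log2 fold change of 2.24 ± 0.31 (SE; edgeR adjusted p = 0.649; DESeq2 adjusted p = 2.8e-10; without doublets edgeR adjusted p = 3.0e-40). Irx4, an Iroquois homeobox gene, stood at 19.9, 44.5 and 44.4 CPM against 1.03, 1.44 and 1.21 CPM, with a log2 fold change of 1.16 ± 0.13 (SE; edgeR adjusted p = 0.649; DESeq2 adjusted p = 0.21; without doublets edgeR adjusted p = 2.1e-10). Hand1, short of the 2-fold mark in 1 library at 224, 425 and 491 CPM, had a log2 fold change of 1.02 ± 0.12 (SE; edgeR adjusted p = 0.649; DESeq2 adjusted p = 2.7e-10; without doublets edgeR adjusted p = 6.9e-22).

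The 21 lower genes shared by both sets of cells were Sox3, Cyp26a1, Inpp1, Nat8l, Bmp4, Nr0b1, Pth1r, Duoxa2, Prss50, Akap17b, Upp1, Tmem114, AA467197, Eomes, Dusp6, Lncenc1, Lmo4, Fgfbp1, Esrrb, Pcsk6 and Bcr. For 15 of them members lay above other host cells in both E8.5 libraries without doublets. Eomes, at 129 CPM at E7.5 (3952 UMIs) and at 53.8 (190) and 41.0 CPM (48) at E8.5, had a log2 fold change of -1.39 ± 0.17 (SE; edgeR adjusted p = 0.649; DESeq2 adjusted p = 0.00034; without doublets edgeR adjusted p = 7.5e-18). Bmp4 had a log2 fold change of -1.55 ± 0.17 (SE; edgeR adjusted p = 0.649; DESeq2 adjusted p = 0.00038; without doublets edgeR adjusted p = 2.0e-23). Nr0b1, an X-linked orphan nuclear receptor, stood at 106, 35.4 and 20.5 CPM, and Upp1, a uridine phosphorylase, at 283, 111 and 108 CPM. Esrrb had 20 and 14 UMIs in the E8.5 libraries, with exact 95% Poisson intervals of 3.46 to 8.75 and 6.53 to 20.04 CPM against 23.1 to 26.7 CPM at E7.5. Inpp1, an inositol polyphosphate phosphatase, stood at 48.8, 13.3 and 9.38 CPM. Both E8.5 libraries lay below the E7.5 library for each of these genes.

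**Figure D4:**
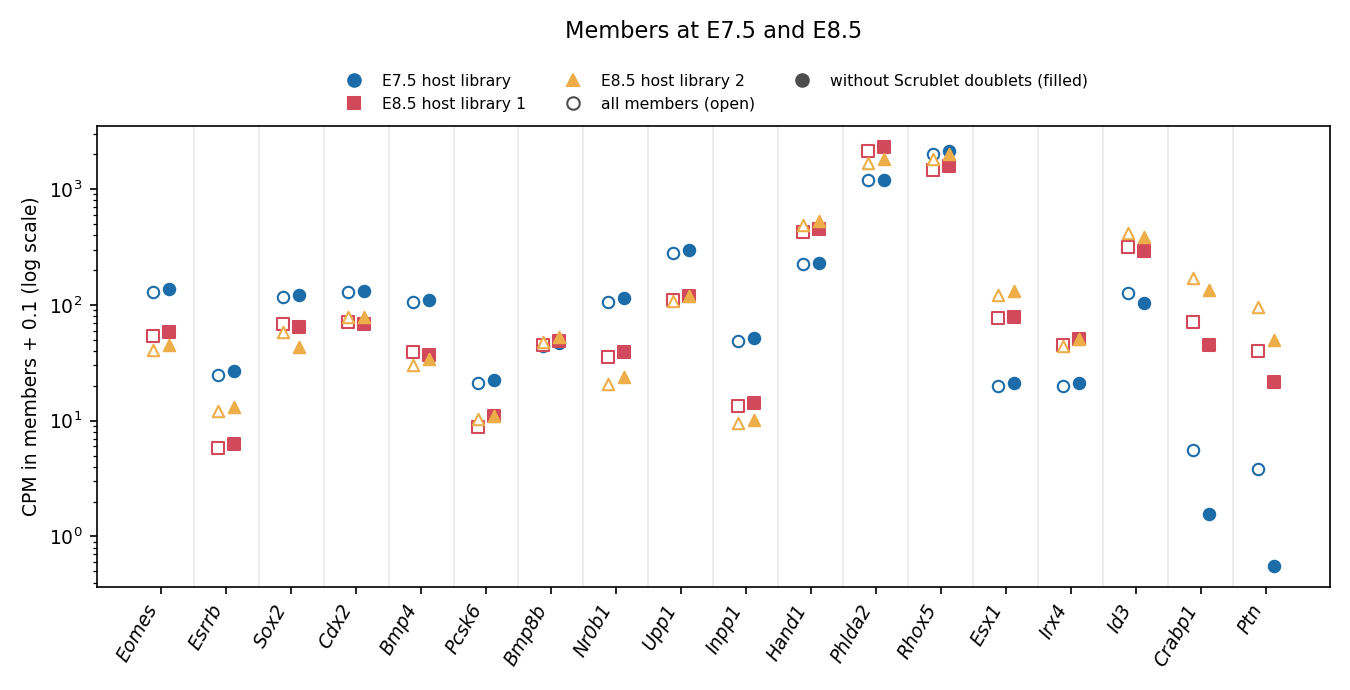
Levels of stage genes in the members as CPM + 0.1 on a log axis, open for all members and filled without doublets, with a symbol for each library. Esx1 and Irx4 lie higher in both E8.5 libraries than at E7.5, and Eomes, Esrrb, Bmp4, Nr0b1 and Upp1 lower, in all members and without doublets.

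No gene of the lists was called by edgeR in all members. The median log2 fold change was 0.004 over all genes tested and -0.74 over the 12 trophoblast stem and chorion factors. Of these 12 genes, 8 had an unadjusted edgeR p under 0.05, beside 751 of all 10644 genes tested. Eomes and Esrrb were 2-fold lower in both libraries. Sox2 and Cdx2 had log2 fold changes of -0.85 ± 0.13 and -0.81 ± 0.11 (SE). Among 10 signalling genes tested the median was -0.45, with Bmp4, Pcsk6 and Dusp6 2-fold lower, while Bmp8b lay at 0.06 ± 0.11 (SE). In the other trophoblast and cell cycle lists no gene with 20 CPM in each library of the higher stage was 2-fold apart in both libraries. Below that minimum, Dlk1 stood at 4.91, 29.2 and 15.4 CPM and Dlx3, a labyrinth factor, at 1.08, 4.53 and 6.83 CPM. Dlk1 stood at 58.7, 164 and 140 CPM in the other host cells and was raised in clusters 5 and 10. Rhox13, also below the minimum, was far apart between the E8.5 libraries, as given above. Without doublets edgeR called Hand1, Dlk1 and Rhox13 higher and Plet1 lower from these lists. Medians were -0.22 over 7 cone genes, 0.14 over 8 labyrinth genes, 0.28 over 15 imprinted genes, 0.35 over 3 Rhox genes, 0.06 over 7 DNA methylation genes, -0.31 over 5 extraembryonic markers of the study, -0.02 over 10 S phase genes and -0.12 over 10 G2/M genes. Of 12 keratin and adhesion genes 3 had an unadjusted edgeR p under 0.05, again beside 751 of 10644 over all genes. No giant cell gene passed the filter on low counts.

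Genes of other cell types differed between the libraries as well. Haemoglobin Hba-x stood at 0.654, 268 and 1020 CPM in members while it stood at 18.0, 10395 and 23062 CPM in the other cells. Ttr, a visceral endoderm gene, stood at 31.8, 256 and 5.12 CPM in members, so the E8.5 libraries straddled the E7.5 library. The share of members in clusters 5, 10 and 13 was likewise higher in both E8.5 libraries than at E7.5. Outside those clusters 10 genes were 2-fold higher and 25 lower in both E8.5 libraries, and with an Elf5 UMI required 13 were higher and 16 lower. In bulk sums of this kind, fewer cells of a type and less RNA per cell cannot be told apart, and the unequal make-up of the libraries by cluster is part of every value over all members.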

How the data were processed

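Host single-cell libraries of Tet-TKO chimaeras were analysed, 1 at E7.5 and 2 at E8.5, with the 5 Tet-TKO libraries as background for the share of members. The files deposited by the authors hold raw UMI counts of genes by barcode, not normalized, from Cell Ranger alignments to mm10. The header of the deposited counts gives version 3.1.0, while the methods of the study name a later one. Every deposited host barcode already had at least 500 UMIs. A minimum of 1500 UMIs per barcode and maxima of 30% mitochondrial and 35% ribosomal UMIs left 7142, 8260 and 9038 cells.

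From these counts, CPM were computed over the summed UMIs of the members, or of other cells, of a library. Members and other cells were compared with no test, as at least 4-fold apart in all 3 libraries at a minimum of 20 CPM, and folds used a floor of 3 UMIs per library. Stages were tested on member sums with edgeR 4.0.16 in R 4.3.3 (filterByExpr, TMM, glmQLFit, glmQLFTest, Benjamini-Hochberg adjustment), with DESeq2 1.42.0 as an alternative. The E8.5 libraries differed by more than sampling noise, at a chi-square of 2.82 per degree of freedom over 5071 genes. Clusters came from scanpy 1.11.5 and leidenalg 0.10.2, on 2000 variable genes without the 6 marker genes, 30 principal components and 15 neighbours. The scripts were tested on simulated data.

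Genes were named from the lists, as the 15 with the largest smallest fold over other cells, as the 10 leading genes of a cluster, and, had any been called, as the 10 with the largest stage change in each direction. Members and lists were chosen with earlier results of these data known. Promoter windows are RefSeq's, on GRCm38.p6. Alternatives changed the marker number, an Elf5 requirement, depth, doublets, other cell types, normalization, filters, thresholds, clustering resolution and the libraries used. Genes that share reads with near-identical copies, as in the Rhox cluster, are uncertain. The Tet-TKO libraries entered no other comparison, and values of their cells that met the rule are given among the observations. Values of some list genes are not reported here.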

Additional observations from a re-analysis of the deposited data

How the results depend on the processing

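The number of genes called between the stages was 0 with all members and stayed 0 with no fold minimum, with an adjusted p of 0.05, with DESeq2 size factors or library size alone, and with other host cells in the same fit. It was 35 by DESeq2, 181 with genes of any count kept, 95 with at least 4 markers, 87 with an Elf5 UMI, 47 after thinning to 5000 UMIs and 129 without doublets. Without members that held UMIs of at least 3 genes of any other-type list it was 7, from 25 and 2 cells at E8.5. Alternatives added after the data were seen gave 118 without the erythroid list in that filter, 79 outside clusters 5, 10 and 13, and 86 with an Elf5 and no Dppa3 UMI. The edgeR fits with calls had an infinite prior degree of freedom and those with none between 1.99 and 5.53, and the cause was not tested. Leaving out an E8.5 library left no residual degrees of freedom, so it gave values with no test. No paired analysis was possible because the labels link no E7.5 library to an E8.5 library. A shared replicate number is no pairing.

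The 77 higher genes became 220 at a fold of 2, 155 at a minimum of 5 CPM and 34 without members with genes of another type, and the 99 lower genes became 271, 204 and 1 in the same order and 183 outside the 3 clusters. The counts of 34 and 1 rest on 25 and 2 cells at E8.5, and the same filter without the erythroid list gave 85 and 146, and leaving out doublets 89 and 146. Without each library in turn the counts were 87 to 98 and 108 to 153, the latter 153 without the E7.5 library and 152 without E8.5 library 2. The share of members at E7.5 was 27.1% with at least 2 markers, 18.7% with at least 4, 12.8% thinned and 22.9% without doublets. It was 2.78%, 1.40% and 0.869% in E8.5 library 1 and 1.27%, 0.454% and 0.325% in E8.5 library 2 for the first 3 of these. Clusters numbered 6 and 24 at the other resolutions. Genes 2-fold higher in both E8.5 libraries were 10 outside the 3 clusters, 13 with an Elf5 UMI and 8 with at least 4 markers, and lower genes 16 with an Elf5 UMI. Of 417 values of 28 named genes under 15 settings, 250 kept their direction and their side of the threshold, 166 passed the threshold in the same direction, and Bmp8b turned to a log2 fold change of -0.53 without members with genes of another type, where 2 cells of E8.5 library 2 remained.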

Other observations

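The few sorted Tet-TKO cells that met the same rule are given here by their other genes, with Dppa3 known from germ cells. UMIs of at least 3 primordial germ cell genes were held by 6 of 18 such cells at E7.5. At E8.5 they were held by 2 of 8, 19 of 22, 7 of 16 and 3 of 9 in Tet-TKO libraries 1 to 4. Among the other Tet-TKO cells the shares were 2.38% at E7.5 and 0.668%, 0.420%, 0.656% and 1.10% in the E8.5 libraries. In the cells with exactly 3 markers Dppa3 stood at 157 CPM at E7.5 and at 179.6, 667, 103.9 and 174 CPM in the E8.5 libraries, and Pou5f1 at 323 CPM and at 97.5, 451, 135 and 159.7 CPM. Library 2 of E8.5 thus stood above the other three in both. Rhox5 stood at 399 CPM in these cells at E7.5 and at 5.13, 10.8, 13.7 and 23.3 CPM at E8.5. The 3 Tet-TKO cells of E7.5 with all 6 markers had Rhox5 at 2099 CPM and Pou5f1 at 75.6 CPM. A tdTomato UMI was found in 10 of the 18 E7.5 cells that met the rule (55.6%), beside 61.2% of the other E7.5 Tet-TKO cells. In these 18 cells tdTomato stood at 27.8 CPM, against 71.7 CPM in the other Tet-TKO cells. In E8.5 Tet-TKO libraries 1 to 4 it stood at 87.4, 62.1, 169 and 203 CPM against 93.1, 97.9, 127 and 144 CPM. Whether any of these cells were host cells was not tested. In the host members, 1, 2 and 1 cells of the 3 libraries held at least 3 germ cell genes. These were 0.0584%, 1.36% and 1.72% of members, beside 0.350%, 0.148% and 0.0445% of the other host cells.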
